A study of Mus musculus with 4 samples.

Results

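The RNAs followed were Malat1, Neat1, Gm42418, AY036118, Gm10076, Gm26778, Gm15655 and Ccdc152, in single-cell RNA sequencing of mouse aortic arches. They were taken by gene symbol and were all found, 8 of the 31053 genes counted. They had been picked because earlier work on these same counts showed them shifting between libraries or following the quality of the cell, so their levels and ratios are given as a description with no test. Ccdc152 is annotated as protein-coding and the others as noncoding.

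The arches, with their branches and perivascular tissue, came from male mice aged 3 months at the start, and each group is 1 library made from pooled tissue. All mice carried floxed Nfe2l2, the gene of the antioxidant regulator Nrf2 (allele C57BL/6-Nfe2l2tm1.1Sred/SbisJ). Lox_CTR and Lox_HFD are the Nrf2Cdh5Lox libraries (Nrf2flox/flox). KO_CTR and KO_HFD are the libraries labelled Nrf2Cdh5tKO, in which Cre under the Cdh5 promoter (B6;129-Tg(Cdh5-cre)1Spe/J) removes exon 5. This promoter is active in endothelium and in a part of the blood cell lineage, so that other aortic cells keep the floxed gene. The HFD mice are the atherosclerotic group and were on a high-fat diet for 21 weeks, with 3 mice per pool. The CTR mice were normocholesterolemic on standard diet, with 4 mice per pool. Live cells were sorted as DAPI-negative and about 12000 were loaded per library. With 1 library per group, no difference below has a replicate, genotype or diet cannot be told apart from the pool and the library, and every interval is a 95% interval that covers counting error only.

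The libraries held 1160 to 8512 barcodes and 12276546 to 98754487 unique molecular identifiers (UMIs, each counting 1 captured RNA molecule), and 14148 of 15599 barcodes passed the limits on genes and mitochondrial share. Any pair of libraries shared 2 to 10 barcode sequences. Cells were gated into 10 types by marker genes, which placed 12356 of them. In each gated type 1 to 4 of the 10 leading genes were its own markers and 0 were markers of another type. The gate used these same markers and counts, so this describes the gated cells and does not test the gate. The leading genes of T lineage-gated cells included Rag1 and Dntt, which thymocytes use to rearrange their receptors. The targeted gene, Nfe2l2, was at 187, 398, 162 and 368 UMIs per 1000000 UMIs (written CPM below) in the endothelial-gated cells of Lox_CTR, KO_CTR, Lox_HFD and KO_HFD. Counted over the whole gene, on 67, 89, 25 and 48 UMIs, Nfe2l2 was not lower under the KO labels. Exon 5 is the last exon of Nfe2l2-201 in the annotation, and where the counted reads lie relative to the excised part was not tested. By qPCR the paper reports less of the excised exon, relative to an unaffected exon, in bone marrow-derived and liver macrophages of the KO genotype. It also reports lower expression of selected target genes of the regulator in those macrophages. Aortic cells were not part of that assay. The whole-gene count does not measure the excision in these libraries, so KO_CTR and KO_HFD stand for labels throughout. Lox_CTR stood apart from the other libraries for several of the RNAs studied here. The contrasts of KO_HFD with Lox_HFD and of KO_HFD with KO_CTR do not use it and are given beside those that do.

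Malat1 and Neat1 are long noncoding RNAs that stay in the nucleus and are transcribed from neighbouring loci. Malat1 gathers in nuclear speckles, where splicing factors are stored, and Neat1 is the RNA scaffold of paraspeckles. Because they are not exported, their share of the RNA of a cell is widely read as a sign of how much cytoplasm was captured with the nucleus. Gm42418 and AY036118 lie in a stretch of chromosome 17 that resembles the ribosomal RNA repeat, and their counts are commonly read as a measure of ribosomal RNA carried into the library. Ribosomal RNA is transcribed in the nucleolus and is not polyadenylated, while the libraries are primed with oligo(dT).

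The positions of the RNAs in GRCm38 (mm10) put 5 of the 8 opposite another gene. Malat1 spans chr19:5795690-5802672 and Neat1 chr19:5824708-5845478, both on the minus strand and each as 1 exon block, with no annotated exon opposite. Gm42418 spans chr17:39846958-39848788 on the plus strand. AY036118 (chr17:39847113-39848035, minus strand) lies opposite it over all of its 923 bases. Gm26778 (chr14:102978220-102982528, plus strand) lies in all of its 3805 exonic bases opposite Kctd12, a potassium channel tetramerization domain gene. Gm15655 (chr8:115705078-115707233, plus strand) lies in all of its 440 exonic bases opposite Maf, which encodes a transcription factor of tissue macrophages. Ccdc152 (chr15:3280070-3303526, minus strand) shares 439 bases at its 3′ end with the 3′ end of Selenop on the other strand. Selenop encodes the secreted selenium carrier selenoprotein P. The sources used here do not state whether the counting used the strand of the read, and without strand the reads of such partners cannot be told apart.

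Gm10076 (chr14:105681828-105682211, plus strand) has no partner on the other strand but is a near copy of the mRNA of Rpl41, a protein of the large ribosomal subunit. Of 383 aligned bases of transcripts Gm10076-201 and Rpl41-201, 381 were identical, with a mismatch at the 5′ end of Gm10076-201 left out. The reading frame of 26 codons is shared in full, which is why it is shown here with its start and stop codons in capitals.
Gm10076 and Rpl41 reading frame: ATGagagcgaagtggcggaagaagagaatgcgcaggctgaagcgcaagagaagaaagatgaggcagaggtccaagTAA
Within the aligned bases the transcripts differ at T127C and A234G, with the Gm10076 base first and positions counted from the 5′ end of Gm10076-201. They are shown because a read from the aligned stretch assigns a molecule only where it covers a difference, and the differing base is in capitals. Rpl41-201 is longer, at 582 bases against 384 for Gm10076-201, and its unaligned bases have no counterpart in Gm10076-201.
Gm10076 at position 127: caagtaagccagccTgtgcacctacgacg
Rpl41 at the same place: caagtaagccagccCgtgcacctacgacg
Gm10076 at position 234: agtagacctggaacAtcacctcgccgcga
Rpl41 at the same place: agtagacctggaacGtcacctcgccgcga
The last 150 bases of Gm10076 hold no difference. Of the 294 places at which a read of 91 bases, the length stated in the methods, can start within Gm10076, 111 (37.8%) hold no difference. Here the mismatch at the 5′ end was counted as a difference. A read from the aligned stretch that covers no difference therefore does not tell the gene of origin. How such reads were counted is not stated in the sources used here. Reads that do cover a difference are told apart by single bases.

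Since the libraries were primed with oligo(dT), the most A-rich stretch of 20 bases of each transcript was also read, and 5 are shown with A in capitals.
Malat1-201, bases 6674 to 6693: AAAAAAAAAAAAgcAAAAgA
Gm15655-201, bases 106 to 125: AAgAAgAAgAAAAAAgAAAA
Ccdc152-202, bases 1290 to 1309: ttAAgtAAAgAAAAAAAAAA
AY036118-201, bases 776 to 795: cgAAAAccAAcAAAAtAgAA
Gm42418-201, bases 210 to 229: AAAAAAttAgAgtgttcAAA
These stretches held 17 A in Malat1, 16 in Gm15655, 15 in Ccdc152, 13 in AY036118 and 11 in Gm42418. Of the members not shown, Neat1 held 17, Gm26778 15 and Gm10076 11. Longer transcripts offer more stretches to choose from, and the shares that follow were not matched on length. Of all annotated mouse transcripts of at least 300 bases, 5.83% had a stretch with as many A as Malat1, 10.6% as many as Gm15655, 18% as many as Ccdc152, 46.7% as many as AY036118 and 81.4% as many as Gm42418. The stretch of Malat1 lies 290 bases before the 3′ end of the annotated transcript Malat1-201, and that of Ccdc152 18 bases before that of Ccdc152-202. Where the RNAs themselves end in these cells was not tested. Whether any of these stretches was primed was not tested.

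Malat1 held a steady level across the libraries. In fibroblast-gated cells it was at 31916 CPM in Lox_CTR, 33071 in KO_CTR, 30964 in Lox_HFD and 34403 in KO_HFD. In macrophage-gated cells it was at 33164, 40638, 38530 and 38315 in the same order. The largest of its log2 ratios between libraries in these types was 0.29 (0.28 to 0.30), for KO_CTR against Lox_CTR in macrophage-gated cells. Lox_CTR was the lowest library among macrophage-gated cells and lay within the range of the others among fibroblast-gated cells.

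Neat1 was lower in the other libraries than in Lox_CTR among fibroblast-gated cells. It was at 284 CPM in Lox_CTR against 174 in KO_CTR, 174 in Lox_HFD and 201 in KO_HFD. The log2 ratio of KO_CTR to Lox_CTR was -0.71 (-0.75 to -0.66) and that of Lox_HFD to Lox_CTR -0.71 (-0.79 to -0.62), while KO_HFD against Lox_HFD gave 0.21 (0.11 to 0.31). In macrophage-gated cells it was at 747, 610, 847 and 529, and there the ratio of KO_HFD to Lox_HFD was -0.68 (-0.84 to -0.52). Neat1 thus moved in opposite directions in these cell types for the same pair of libraries, and neither contrast reached a factor of 2.

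Gm42418 was several times lower in Lox_CTR than in every other library. In fibroblast-gated cells it was at 3268 CPM in Lox_CTR, 11759 in KO_CTR, 12930 in Lox_HFD and 11836 in KO_HFD. In macrophage-gated cells it was at 4824, 22348, 26548 and 21547. The log2 ratio of KO_CTR to Lox_CTR was 1.85 (1.84 to 1.86) in fibroblast-gated and 2.21 (2.19 to 2.23) in macrophage-gated cells. Among the libraries other than Lox_CTR the ratios were small, at -0.13 (-0.14 to -0.12) for KO_HFD against Lox_HFD and 0.01 (0.00 to 0.02) for KO_HFD against KO_CTR in fibroblast-gated cells.

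AY036118, which lies opposite Gm42418, had another order of libraries. In fibroblast-gated cells it was at 258, 199.6, 249 and 139.8 CPM in the same order of libraries. KO_HFD was the lowest of these. In smooth muscle-gated cells it was at 463, 967, 1465 and 490.0, so that Lox_CTR and KO_HFD were close there and both lower than the others. The log2 ratio of KO_HFD to Lox_HFD was -0.83 (-0.93 to -0.74) in fibroblast-gated and -1.58 (-1.69 to -1.46) in smooth muscle-gated cells.

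Gm10076, the near copy of Rpl41, was highest in Lox_CTR. In fibroblast-gated cells it was at 897 CPM in Lox_CTR, 388 in KO_CTR, 117 in Lox_HFD and 205 in KO_HFD. In macrophage-gated cells it was at 551, 172, 78.8 and 113. The order of the libraries was the same in both types. The log2 ratio of Lox_HFD to Lox_CTR was -2.94 (-3.04 to -2.84) in fibroblast-gated and -2.81 (-3.27 to -2.38) in macrophage-gated cells. Without Lox_CTR, KO_HFD stood below KO_CTR by -0.92 (-0.98 to -0.86) and above Lox_HFD by 0.81 (0.69 to 0.92) in fibroblast-gated cells.

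The RNAs opposite Kctd12, Maf and Selenop had their highest levels in macrophage-gated cells. Gm26778 was at 50.2 CPM there in Lox_CTR, 576 in KO_CTR, 527 in Lox_HFD and 189 in KO_HFD. Lox_CTR was the lowest and KO_HFD lay between it and the others. The log2 ratio of KO_CTR to Lox_CTR was 3.52 (3.34 to 3.70) and that of KO_HFD to Lox_HFD was -1.48 (-1.70 to -1.25). Gm15655 was at 11.2, 120.3, 165 and 67.8 CPM, again with Lox_CTR lowest and KO_HFD next. Its log2 ratios were 3.42 (3.03 to 3.82) for KO_CTR against Lox_CTR and -1.28 (-1.68 to -0.88) for KO_HFD against Lox_HFD. Ccdc152 was at 17.03, 124, 309.8 and 170.5, with the highest level in Lox_HFD. Its log2 ratio of Lox_HFD to Lox_CTR was 4.19 (3.83 to 4.55), the largest of the member ratios in macrophage-gated cells. KO_HFD was above KO_CTR for Ccdc152, at 0.46 (0.22 to 0.69), and below it for Gm26778, at -1.61 (-1.78 to -1.44). The latter was under a factor of 2 in cells with under 2.5% mitochondrial UMIs, at -0.76, and per UMI of Kctd12, at -0.87. The median mitochondrial share differed between the libraries too, and in macrophage-gated cells it was 2.10%, 3.37%, 2.99% and 2.40% in the 4 libraries. Among macrophage-gated cells with under 2.5% mitochondrial UMIs, the log2 ratio of KO_CTR to Lox_CTR was 2.20 (1.90 to 2.50) for Gm26778 and 2.53 (1.87 to 3.19) for Gm15655. KO_CTR also held more UMIs of 4 atrial muscle genes in macrophage-gated cells, 0.0452% of all UMIs against 0 to 1.32e-04% in the other libraries. The part of either in these results was not tested.

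**Figure D1:**
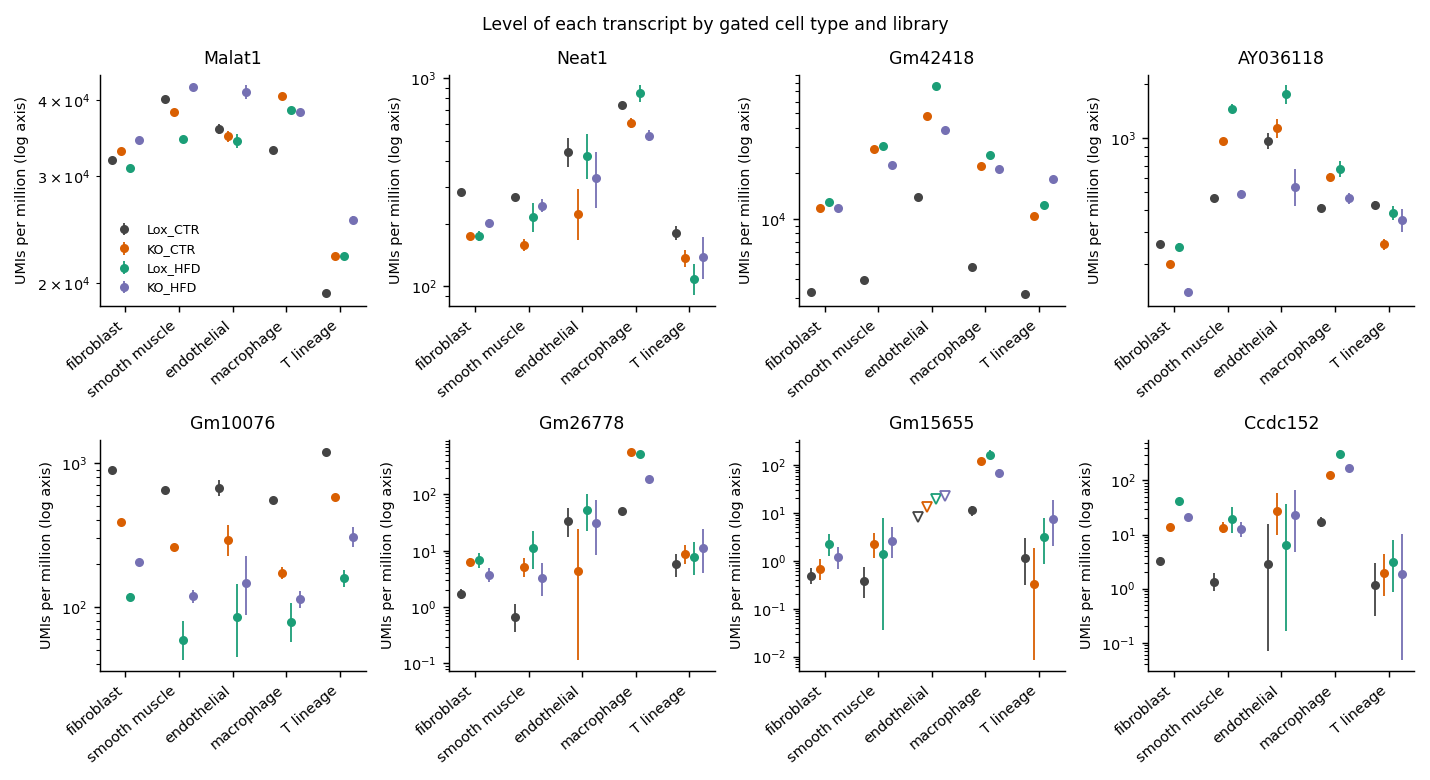
CPM (log axis) of each RNA in 5 gated cell types, 1 point per library with its 95% Poisson interval; open triangles give the limit of 3 counts where no UMI was counted. Lox_CTR is the lowest library for Gm42418 and the highest for Gm10076 in all 5 types, while Malat1 stays within 30964 to 34403 in fibroblast-gated cells.

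Counted against the other genes, a factor of 2 was passed by more of these RNAs in the contrasts that use Lox_CTR. Since those contrasts chose the RNAs, nothing is read from the counts. In fibroblast-gated cells 7 of the 8 had at least 50 UMIs in the pair of libraries, all but Gm15655. For KO_CTR against Lox_CTR, 4 of these 7 passed (3 higher, 1 lower), beside 4.92% of 13283 genes. For Lox_HFD against Lox_CTR it was 4 of 7, beside 6.79% of 12860 genes. For KO_HFD against Lox_HFD it was 0 of 7, beside 0.962% of 11122 genes, and for KO_HFD against KO_CTR 0 of 7, beside 4.59% of 12165 genes. In macrophage-gated cells all 8 had at least 50 UMIs. There 5 passed for KO_CTR against Lox_CTR (beside 7.6% of 8624 genes) and 5 for Lox_HFD against Lox_CTR (beside 12.7% of 7917). The RNAs that passed in both were Gm42418, Gm10076, Gm26778, Gm15655 and Ccdc152. For KO_HFD against Lox_HFD it was Gm26778 and Gm15655, both lower, beside 4.27% of 5462 genes, and for KO_HFD against KO_CTR only Gm26778, lower, beside 3.02% of 7121. The median of all genes was at most 0.20 away from 0 on the log2 scale in each of these contrasts.

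**Figure D2:**
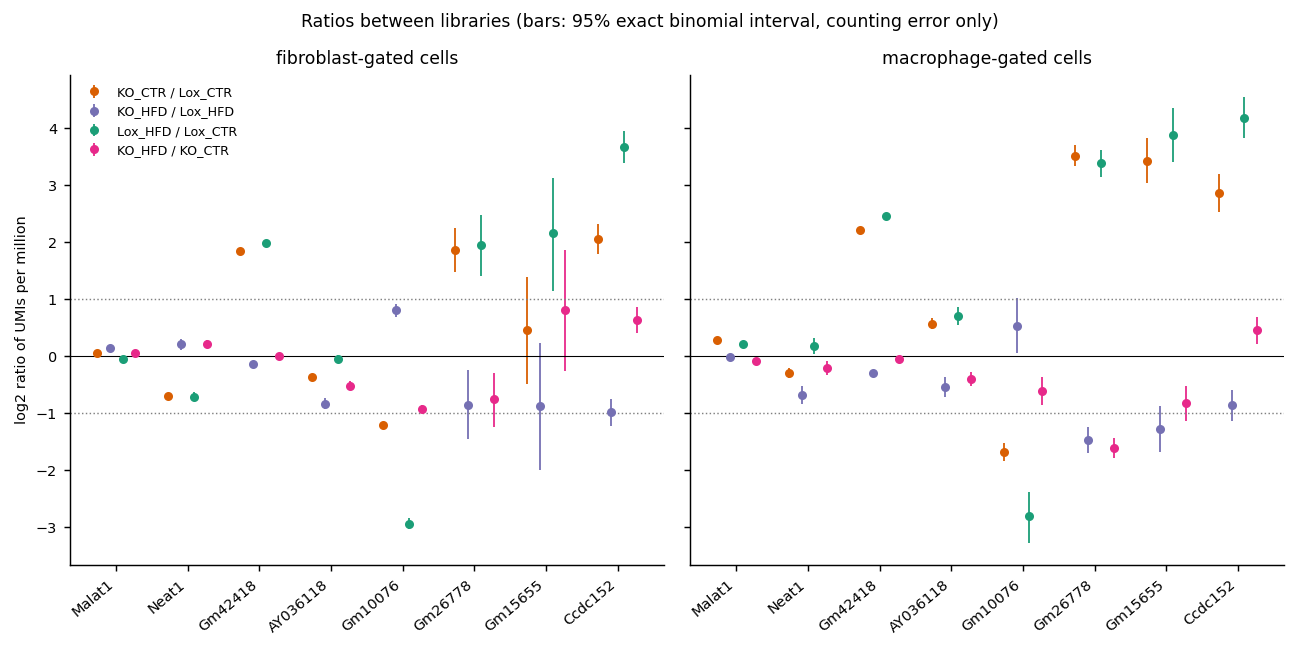
Log2 ratios of CPM between libraries for the 8 RNAs in fibroblast-gated (left) and macrophage-gated (right) cells, with 95% binomial intervals; dotted lines mark a factor of 2. The contrasts with Lox_CTR as denominator (orange, green) lie furthest from 0 for Gm42418, Gm10076, Gm26778 and Ccdc152 in both panels, and for Gm15655 in macrophage-gated cells.

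Members with a partner were then read as their part of the UMIs of the pair. The part taken by Gm10076 of the summed UMIs of Gm10076 and Rpl41 was 24.2% (24.1 to 24.4) in the fibroblast-gated cells of Lox_CTR, 11.04% (10.8 to 11.2) in KO_CTR, 2.64% (2.46 to 2.83) in Lox_HFD and 4.19% (4.04 to 4.35) in KO_HFD. Over 5 gated types (fibroblast, smooth muscle, endothelial, macrophage and T lineage) it ran from 20.8% to 24.2% in Lox_CTR, from 8.89% to 11.04% in KO_CTR, from 1.98% to 3.103% in Lox_HFD and from 3.27% to 4.32% in KO_HFD. These ranges did not overlap between libraries, though those of Lox_HFD and KO_HFD lay close together. Rpl41 itself was at 2802, 3123, 4322 and 4684 CPM in the fibroblast-gated cells of Lox_CTR, KO_CTR, Lox_HFD and KO_HFD, lowest where Gm10076 was highest. The log2 ratio of Lox_HFD to Lox_CTR for Rpl41 was 0.62 (0.61 to 0.64) there. In macrophage-gated cells Rpl41 was at 2074, 1686, 2461 and 2958 CPM.

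For the RNAs on opposite strands the part taken by the member differed between cell types too. AY036118 made up 7.31% (7.19 to 7.43) of its UMIs together with Gm42418 in the fibroblast-gated cells of Lox_CTR, and 1.67%, 1.89% and 1.17% in KO_CTR, Lox_HFD and KO_HFD. Over the 5 types it ran from 6.50% to 11.8% in Lox_CTR and from 1.17% to 4.61% in the other libraries, with no overlap. Gm26778 made up 8.28% (7.41 to 9.22) of its UMIs with Kctd12 in the macrophage-gated cells of Lox_CTR, 37.4% (35.8 to 39.0) in KO_CTR, 42.6% (38.9 to 46.4) in Lox_HFD and 24.6% (22.4 to 26.9) in KO_HFD. Gm15655 made up 2.51%, 10.2%, 12.5% and 6.92% of its UMIs with Maf there. Ccdc152 made up 0.655%, 3.67%, 10.2% and 5.15% of its UMIs with Selenop. In each of these 3 pairs Lox_CTR was the lowest and Lox_HFD the highest library in macrophage-gated cells.

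In macrophage-gated cells Kctd12, Maf and Selenop differed less between libraries than the members opposite them did. Maf was at 437, 1055, 1153 and 912 CPM there and Kctd12 at 557, 964, 709 and 579. Selenop was at 2582, 3264, 2728 and 3141. Divided by Maf, the log2 ratio of KO_CTR to Lox_CTR for Gm15655 was 2.15, against 3.42 over all UMIs. Divided by Kctd12, that of Gm26778 was 2.73, against 3.52. Divided by Selenop, that of Ccdc152 was 2.53, against 2.87. The pair of AY036118 and Gm42418 went the other way, with 411 to 673 CPM for AY036118 and 4824 to 26548 for Gm42418. Divided by Gm42418, the log2 ratio of KO_CTR to Lox_CTR for AY036118 was -1.64, against 0.57 over all UMIs. In fibroblast-gated cells the rise of Ccdc152 in KO_HFD over KO_CTR, 0.63 (0.40 to 0.86), was 0.02 once divided by Selenop.

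**Figure D3:**
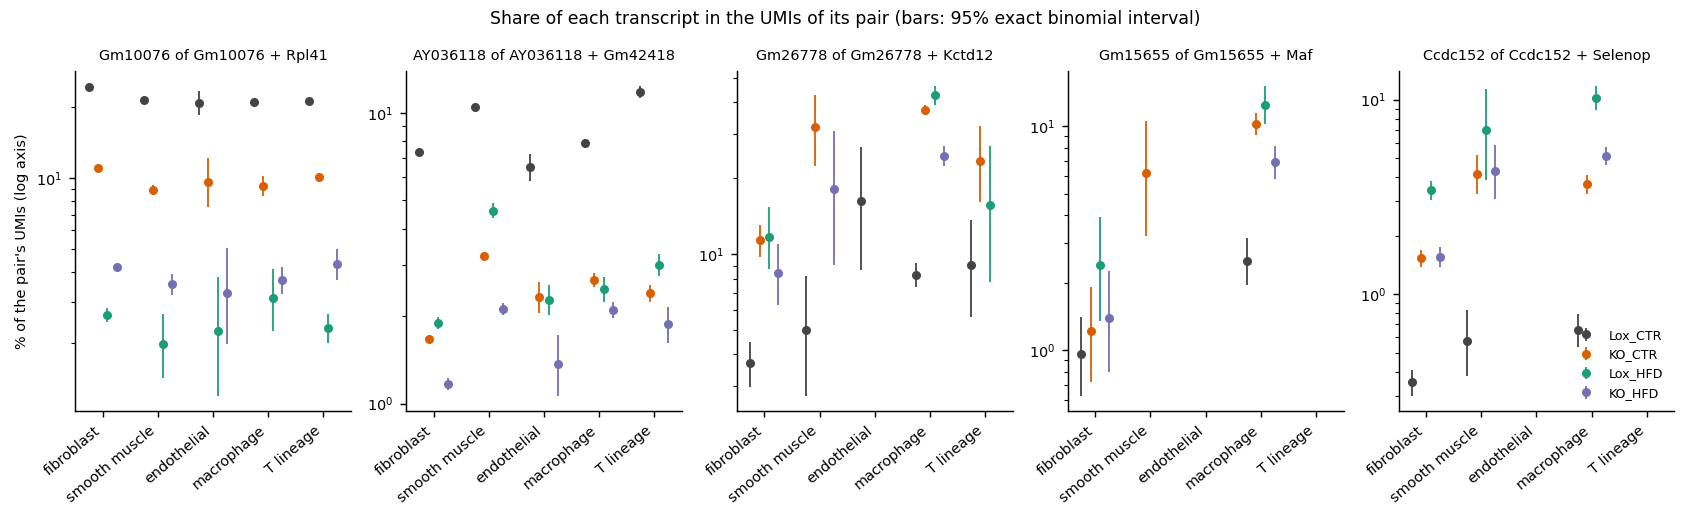
Percent of the summed UMIs of a pair that fell to the member (log axis), by gated type and library, with 95% binomial intervals; points with fewer than 10 UMIs of the member are left out. For Gm10076 the points of a library lie in a narrow band across cell types, 20.8% to 24.2% in Lox_CTR and 1.98% to 3.103% in Lox_HFD.

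Other noncoding RNAs opposite a protein-coding gene were then looked at, a set chosen after these values were seen. There were 282 that shared at least 50 exonic bases with a coding gene of at least 10 times their UMIs and had at least 50 UMIs themselves, the 8 RNAs not among them. In macrophage-gated cells their part of the UMIs of these pairs was 1.65% (1.59 to 1.70) in Lox_CTR, 2.39% (2.28 to 2.49) in KO_CTR, 2.86% (2.64 to 3.0997) in Lox_HFD and 1.95% (1.84 to 2.06) in KO_HFD. In fibroblast-gated cells it was 1.09%, 1.22%, 1.65% and 1.34%. Lox_CTR was lowest and Lox_HFD highest in both types. Of the 18 with at least 50 UMIs in the macrophage-gated cells of KO_CTR and Lox_CTR, 4 were at least 2-fold higher per UMI of the partner in KO_CTR and 1 was lower, with a median log2 ratio of 0.52. Of 147 in fibroblast-gated cells, 6 were higher and 10 lower, with a median of -0.19.

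Across cell types the RNAs fell into different patterns. The order below is that of the median over the 4 libraries, for the 5 types with at least 20 cells in every library. Neat1 was highest in macrophage-gated cells, with 529 to 847 CPM over the libraries, clear of endothelial-gated cells at 223 to 439. The latter, smooth muscle-gated (158 to 268), fibroblast-gated (174 to 284) and T lineage-gated cells (108 to 180.2) each overlapped with the next. From summed UMIs, Malat1 was lowest in T lineage-gated cells, at 19253 to 25407, clear of fibroblast-gated cells at 30964 to 34403. Fibroblast-gated, endothelial-gated (34294 to 41280), macrophage-gated (33164 to 40638) and smooth muscle-gated cells (34547 to 42023) overlapped. Deep cells weigh most in these sums. In the shallowest of 4 equal groups of Lox_CTR cells, Malat1 was at 65634 in T lineage-gated and 35048 in fibroblast-gated cells. In the deepest group it was at 9659 and 30518, so the order of these types depended on depth.

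Gm42418 was highest in endothelial-gated cells in every library, with 13928 CPM in Lox_CTR, 47903 in KO_CTR, 75783 in Lox_HFD and 38707 in KO_HFD. Its ranges over libraries overlapped between all neighbouring types. The endothelial-gated cells were few, 68, 35, 23 and 20 in the same order. AY036118 was also highest there, at 968, 1139, 1761 and 536. Gm10076 was highest in T lineage-gated cells, at 1191, 584, 158 and 306, and its ranges overlapped between all neighbouring types.

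Gm26778, Gm15655 and Ccdc152 were highest in macrophage-gated cells. The lowest macrophage library of Gm15655, Lox_CTR at 11.2 CPM, was above the highest of T lineage-gated cells at 7.43. In endothelial-gated cells Gm15655 had 0 UMIs in all 4 libraries, which at their size allows up to 8.39 CPM in Lox_CTR, 13.4 in KO_CTR, 19.5 in Lox_HFD and 23.0 in KO_HFD (3 counts). For Gm26778 the range of macrophage-gated cells, 50.2 to 576, met that of endothelial-gated cells, 4.47 to 52.0. For Ccdc152 the range of macrophage-gated cells, 17.03 to 309.8, met that of fibroblast-gated cells, 3.30 to 42.1. In both the overlap came from the Lox_CTR value of macrophage-gated cells.

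Split on the log2 scale over 5 types and 4 libraries, 88.5% of the sum of squares of Malat1 lay between types and 5.96% between libraries. For Neat1 it was 87.0% and 7.19%. For Gm10076 it was 15.7% and 83.1%, and for Gm42418 37.1% and 59.1%. For Gm26778 80.9% lay between types and 7.19% between libraries, for Gm15655 85.8% and 5.63%. For Ccdc152 it was 66.9% and 24.1%, and for AY036118 74.3% and 13.5%. The split of Gm15655 takes the 0 UMIs of endothelial-gated cells as 0 CPM.

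Malat1 and Neat1 were highest in cells with a high mitochondrial share. Levels are given here per 1000000 UMIs outside mitochondrial genes, so that the mitochondrial UMIs do not dilute them. In the fibroblast-gated cells of Lox_CTR, Malat1 was at 31235 in cells with under 2.5% mitochondrial UMIs, 36460 at 2.5 to 5%, 72563 at 5 to 10%, 129002 at 10 to 15% and 151561 above 15%, a class that the filter leaves out elsewhere. These classes held 3674, 631, 104, 40 and 48 cells. Neat1 was at 294, 248, 432, 782 and 1542 in the same cells, with no rise at 2.5 to 5%. In the other libraries Malat1 in fibroblast-gated cells with 5 to 10% was at 72734 (KO_CTR), 49882 (Lox_HFD) and 88794 (KO_HFD), against 33209, 31406 and 34434 under 2.5%. These classes at 5 to 10% held only 36, 14 and 18 cells, and at 2.5 to 5% Malat1 in Lox_HFD was at 30768, not above its level under 2.5%. Spearman's rho per cell between the share of Malat1 and the mitochondrial share was 0.25 in Lox_CTR, 0.041 in KO_CTR, 0.029 in Lox_HFD and 0.060 in KO_HFD among fibroblast-gated cells. In macrophage-gated cells it was 0.20, 0.43, 0.30 and 0.49, and there Malat1 went from 31294, 33574, 32646 and 31374 under 2.5% to 63469, 55058, 68652 and 86496 at 5 to 10%.

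Gm42418 rose with the mitochondrial share in fibroblast-gated cells, from 2931 to 9808 in Lox_CTR and from 10953 to 17635 in KO_CTR between the classes under 2.5% and 5 to 10%. In smooth muscle-gated cells the classes had no common course. There the log2 ratio of the class at 10 to 15% to that under 2.5% was -0.47 in Lox_CTR, -1.54 in KO_CTR and -0.99 in KO_HFD, while that of Malat1 was 1.24, 1.33 and 1.68. Above 15%, on 14 to 19 cells a library, Gm42418 was at 0.29, 0.10 and 0.99 against the class under 2.5%. Gm10076 was lower at 5 to 10% than under 2.5% in fibroblast-gated cells. It went from 936 to 617 in Lox_CTR and from 410 to 202.3 in KO_CTR. Lox_HFD went from 123 to 53.1 and KO_HFD from 213 to 70.5. These last classes at 5 to 10% held only 14 and 18 cells, and their log2 ratio of KO_HFD to Lox_HFD was 0.41 (-1.81 to 2.74). In Lox_CTR Gm10076 was at 281 at 10 to 15% and 491 above 15%, on 27 and 29 UMIs. Within classes of like mitochondrial share the ratios between libraries varied. In fibroblast-gated cells the log2 ratio of KO_CTR to Lox_CTR for Gm42418 was 1.90 (1.89 to 1.91) under 2.5%, 1.68 (1.66 to 1.70) at 2.5 to 5% and 0.85 (0.79 to 0.90) at 5 to 10%. That of Lox_HFD to Lox_CTR for Gm42418 was 2.12, 1.15 and 1.92 in these classes. For Gm10076 the ratio of Lox_HFD to Lox_CTR was -2.93 (-3.04 to -2.82), -2.87 (-3.15 to -2.61) and -3.54 (-5.42 to -2.17).

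Gm26778 also rose with the mitochondrial share in macrophage-gated cells, up to the class at 5 to 10%. In KO_CTR it went from 216 under 2.5% to 726 at 2.5 to 5% and 1062 at 5 to 10%. It was lower again at 10 to 15%, at 425 on 24 UMIs, and at 972 above 15%, on 43 UMIs. In Lox_CTR it went from 47.1 to 60.0 and 99.1 over the same classes. In KO_HFD it went from 127 to 291 and 528. Gm15655 went from 52.7 to 156 and 201 in KO_CTR, while in Lox_CTR, with 9.14, 19.8 and 6.60, it had no such course. In KO_CTR Gm15655 was at 53.2 at 10 to 15% and 317 above 15%, on 3 and 14 UMIs.

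**Figure D4:**
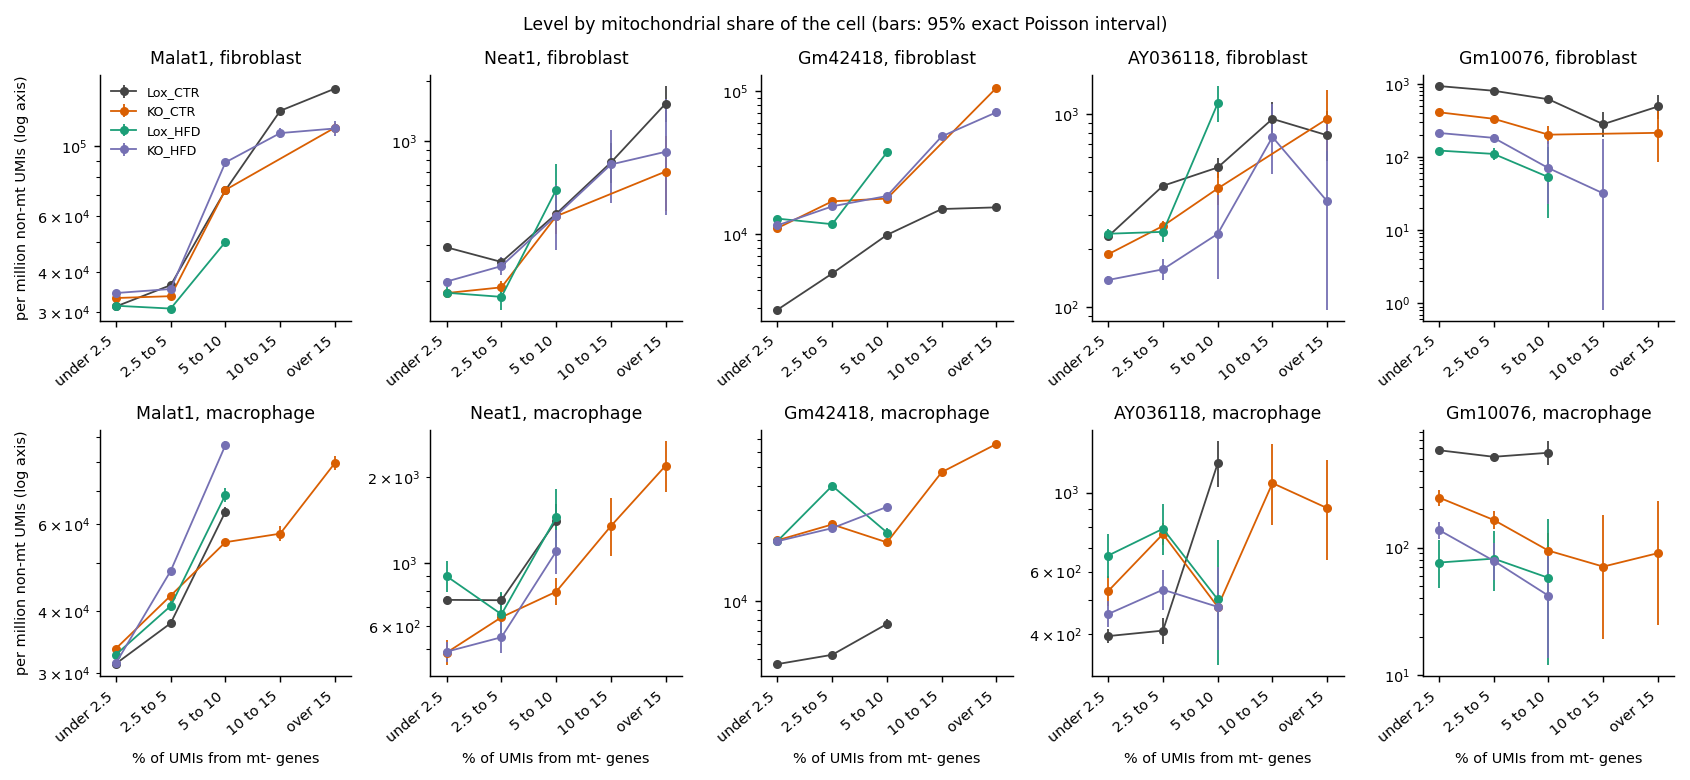
Level per 1000000 UMIs outside mitochondrial genes (log axis) by class of mitochondrial share, for 5 RNAs in fibroblast-gated (top) and macrophage-gated (bottom) cells, 1 line per library with 95% Poisson intervals; classes under 10 cells and levels of 0 are left out. Malat1 is higher at 5 to 10% than under 2.5% in every library and in the fibroblast-gated cells of Lox_CTR goes from 31235 to 151561, while Gm10076 in fibroblast-gated cells is lower at 5 to 10%.

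The relation to the total UMIs of the cell depended on the cell type. In T lineage-gated cells the share of Malat1 fell steeply with depth. These cells were not split into thymocytes and other T cells, and whether their kind changed with depth was not tested. When the cells of Lox_CTR were ranked by total UMIs and cut into 4 groups of equal size, Malat1 was at 65634, 31709, 19617 and 9659 CPM, with median totals of 2757, 5335, 8393 and 15914 UMIs. The number of Malat1 UMIs per cell hardly changed over this range, at 172, 169, 168 and 192. In KO_CTR the share went from 71182 to 10561 while the UMIs per cell were 231, 223, 240.0 and 261. In macrophage-gated cells both changed, with 264, 320.1, 372 and 425 Malat1 UMIs per cell in the 4 groups of Lox_CTR and a share that went from 56072 to 25182. In fibroblast-gated cells the log2 ratio of the shallowest to the deepest group was 0.08 to 0.32 over the libraries.

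Spearman's rho between the share of Malat1 and the total UMIs of a cell, given as a description, was -0.82 in Lox_CTR (384 cells), -0.79 in KO_CTR, -0.73 in Lox_HFD and -0.58 in KO_HFD among T lineage-gated cells. In fibroblast-gated cells it was between -0.0033 and 0.050. Total UMIs enter both measures, and they also went down with the mitochondrial share in T lineage-gated cells (rho -0.39 to -0.32). Gm42418 had a rho of -0.72 to -0.36 in T lineage-gated cells and of -0.059 to 0.30 in fibroblast-gated cells. For Gm10076 the rho fell once cells were thinned to 2000 UMIs each, with a median over types and libraries of 0.28 in all cells, 0.26 in those with at least 2000 UMIs and 0.081 after thinning these. Its rho was highest in the macrophage-gated cells of KO_CTR, at 0.49 over all cells and 0.21 after thinning. In fibroblast-gated cells it had no common sign over all cells, at -0.14 in Lox_CTR, -0.026 in KO_CTR, 0.10 in Lox_HFD and 0.091 in KO_HFD.

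**Figure D5:**
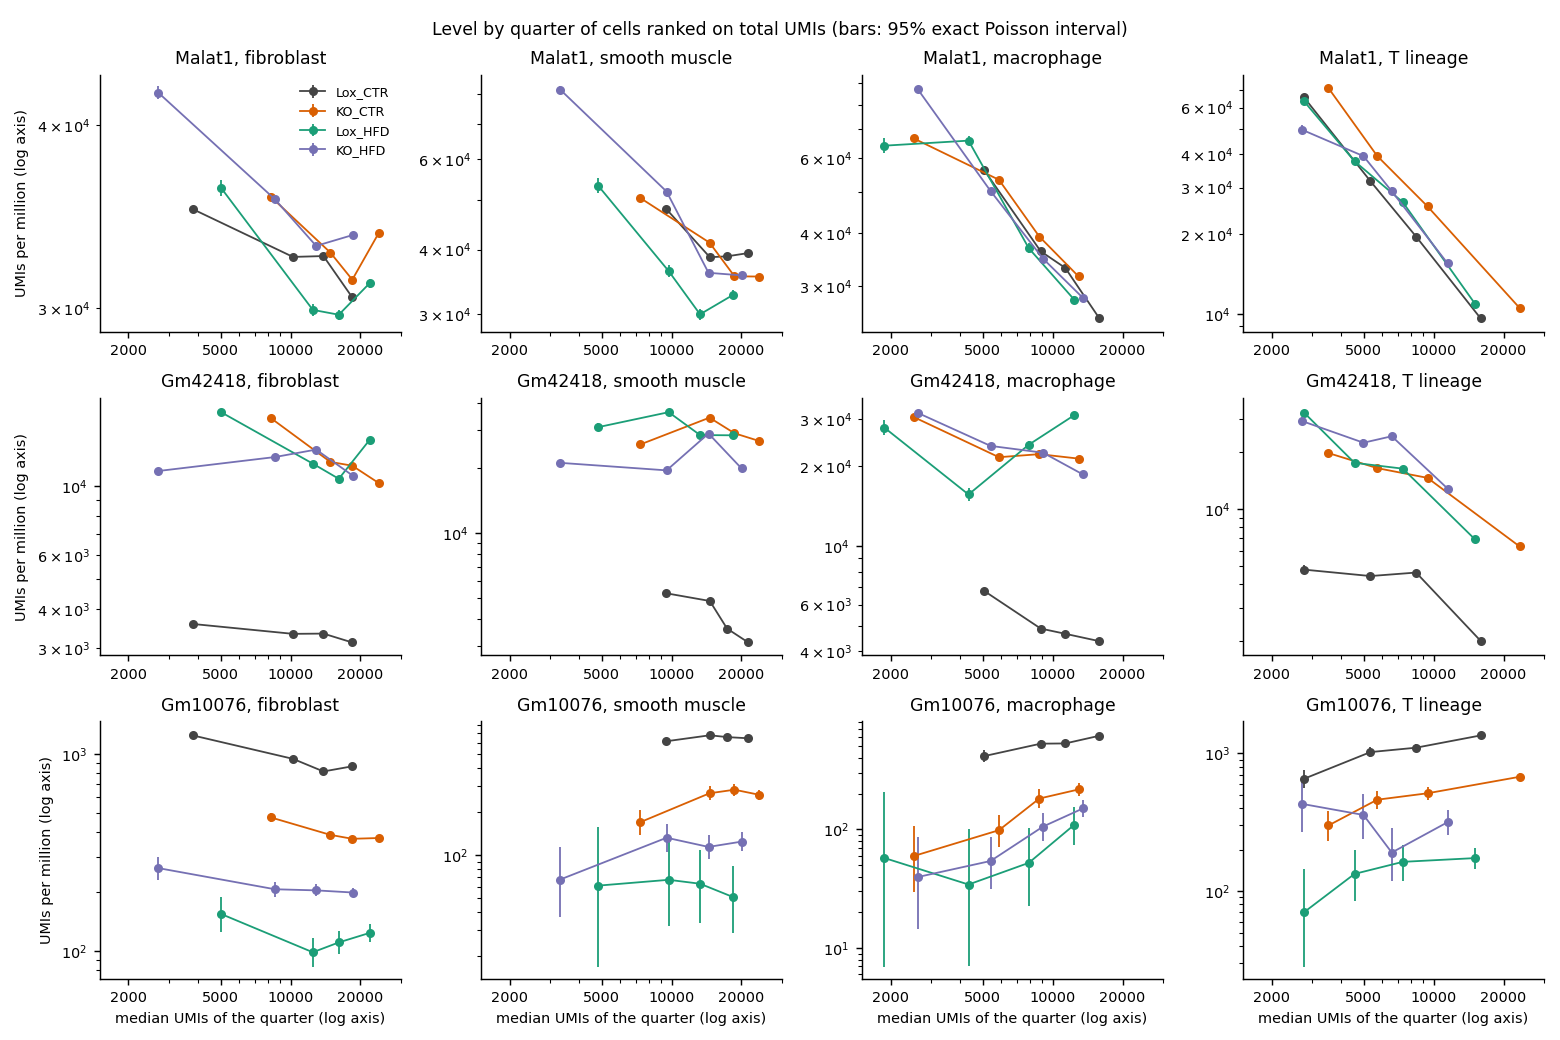
CPM of Malat1, Gm42418 and Gm10076 (log axis) against the median total UMIs (log axis) of 4 groups of cells of equal number, by gated type and library, with 95% Poisson intervals. In T lineage-gated cells Malat1 falls from 65634 to 9659 in Lox_CTR, and in every panel of Gm42418 Lox_CTR lies below the other libraries.

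Other nuclear RNAs, and the mRNAs that encode proteins of the same compartments, were read beside these. Of 18 other noncoding nuclear RNAs 11 were found by symbol, and 8 had at least 50 UMIs in the fibroblast-gated cells of KO_CTR and Lox_CTR, and 0 of them passed a factor of 2, with a median log2 ratio of -0.02. In macrophage-gated cells 4 were measured and their median was 0.76, with 0 past the factor. Kcnq1ot1, an imprinted antisense RNA, was at 0.81 and Tug1 at 0.70 there. In KO_HFD against KO_CTR Meg3, an imprinted noncoding RNA, was at -1.59 in macrophage-gated cells, on only 14 and 53 UMIs. It was at -0.70 in fibroblast-gated cells. Of the mRNAs of 14 proteins of speckles and paraspeckles, 13 or 14 of them measured, 0 passed in any of the 4 contrasts in either type. The proteins themselves were not measured. The medians of these mRNAs were 0.13, -0.10, 0.12 and -0.10 in fibroblast-gated cells. The contrasts are KO_CTR against Lox_CTR, KO_HFD against Lox_HFD, Lox_HFD against Lox_CTR and KO_HFD against KO_CTR. Sfpq, which encodes a core paraspeckle protein, was at 0.09 in the first of these.

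Lars2 and Gm26917, listed for their likeness to ribosomal RNA, went different ways. Lars2, the mitochondrial leucyl-tRNA synthetase, was at 128, 300.4, 405 and 351 CPM in the fibroblast-gated cells of Lox_CTR, KO_CTR, Lox_HFD and KO_HFD, with Lox_CTR lowest as for Gm42418. Its log2 ratio of KO_CTR to Lox_CTR was 1.23 (1.19 to 1.28). Gm26917 was at 45.6, 20.8, 28.8 and 24.4, with Lox_CTR highest and a ratio of -1.13 (-1.27 to -0.996). Its position relative to Gm42418 was not looked at. Of 9 ribosomal protein pseudogenes 7 were measured in fibroblast-gated cells for Lox_HFD against Lox_CTR, with 2 at least 2-fold higher, 0 lower and a median of 0.42, while Gm10076 was at -2.94. Of 92 ribosomal protein genes 86 were measured there, with a median of -0.03. The 13 mitochondrial genes had a median of 0.23 there and the 12 dissociation stress genes of -0.29. In macrophage-gated cells the mitochondrial genes were at a median of 0.67 for KO_CTR against Lox_CTR. Of the 12 stress genes, 3 were at least 2-fold higher there for KO_CTR against Lox_CTR (Jun 1.33, Egr1 1.08 and Ier2 1.03). For Lox_HFD against Lox_CTR 3 were higher (Jun 1.36, Fos 1.16 and Egr1 1.01) and Hspa1b was lower at -1.20. Their part in the shifts of Gm26778, Gm15655 and Ccdc152 in these contrasts was not tested. The 5 erythroid genes, read for free RNA of red cells, took at most 0.00702% of the UMIs of any of the main gated types, in the fibroblast-gated cells of Lox_CTR.

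The genes whose levels ran most like each RNA were found over 26 sums of a cell type and a library, as Pearson's r of log2(CPM + 1). These sums share libraries and cell types, so r is a description only. Lars2 was nearest to Gm42418 at 0.97. Ccrl2 was nearest to Neat1 (0.90), Adap2os to Gm15655 (0.92), Mob1a to Gm26778 (0.87), Wwp1 to Ccdc152 (0.87), Fer to Malat1 (0.88), Coro1c to AY036118 (0.83) and Gm10073 to Gm10076 (0.80). Maf ranked 4 for Gm15655 (0.88), Selenop 7 for Ccdc152 (0.84) and Kctd12 61 for Gm26778 (0.76). With the mean of each cell type subtracted, so that only the library pattern was left over 22 sums, Lars2 was again nearest to Gm42418 (0.96). On that scale Gm10076 ran against Rpl41 (-0.78) and against Gm42418 (-0.87). Gm42418 ran with Ccdc152 (0.82), Gm15655 (0.70) and Gm26778 (0.61). Malat1 and Neat1 had an r of -0.05 with each other.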

How the data were processed

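The authors deposited whole counts of UMIs per gene and barcode, not normalized, made from 10x Genomics 3′ libraries with Cell Ranger 6.1.2 on mm10. The annotation behind the counts is not given in the sources used here. The study's limits were applied to barcodes, 200 to 6000 detected genes and a mitochondrial share of no more than 15%. No doublet caller was run. A cell was gated to the type with the highest marker level if at least 3 of its markers were detected, the level was at least 20% of that type's reference level and at least 3 times that of the next type. UMIs were summed per type and library (20 to 4449 cells for the types described) and given per 1000000 (CPM). Intervals are exact Poisson intervals for levels and exact binomial ones for ratios and shares. The share of genes past a factor of 2 was taken over genes with at least 50 UMIs in a pair of libraries. List ratios had 0.5 added to each count.

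The members, lists and alternatives were chosen with earlier results of these counts known. Named genes are the members, their partners, the 3 genes most like each member among those with at least 500 UMIs, of which the nearest are printed, and genes of the lists. Positions and sequences come from GENCODE vM21 on GRCm38, in which 30934 of the 31053 genes were found by identifier. The ratio and its interval were tested on simulated counts. Alternatives changed the denominator, limits, gate and thresholds. Tables were made with pandas 2.3.3 and numpy 2.4.6, intervals with scipy 1.17.1 and plots with matplotlib 3.10.9, under Python 3.11.15. Part of the treatment of the HFD mice and 1 of the lists are not reported here.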

Additional observations from a re-analysis of the deposited data

Results flagged for a closer look

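The ratio of the library labelled KO to the Lox library ran in opposite directions on standard and high-fat diet, by a factor of 2 or more in both and with intervals off 0, for 5 of 32 pairs of a member and a main gated type. The same count was not made over all genes, and the RNAs were chosen with these contrasts known, so nothing is read from it. The difference between diets was not tested, since each group is 1 library. In macrophage-gated cells Gm26778 had log2 ratios of 3.52 and -1.48, a difference of 5.00, and Gm15655 had 3.42 and -1.28, a difference of 4.70. In smooth muscle-gated cells Gm26778 had 2.93 and -1.79, a difference of 4.72, on 8 to 28 UMIs per library. AY036118 had 1.06 and -1.58 there, a difference of 2.64. Gm10076 had -1.33 and 1.01 there, a difference of -2.34. In all of these Lox_CTR is the denominator on standard diet, and the library, the pool and the genotype cannot be told apart.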

How the results depend on the processing

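Of 552 recomputed ratios of single RNAs, 536 kept their direction, and of the 194 that started from a factor of 2 or more all kept it and 191 stayed past that factor. Of the 552, 21 moved by more than a factor of 1.5. Smaller moves often left the interval of the main ratio. As a mean over cells 30 ratios lay outside it and 34 inside, and with 1 more marker in the gate 2 and 62. Counts in the contrasts with Lox_CTR stayed within 1.5 times. Where few RNAs passed, counts moved. The share of all genes past the threshold was not taken at the alternative settings, so nothing is read from these counts. For KO_HFD against Lox_HFD in fibroblast-gated cells 0 became 1 over all barcodes, 2 as a mean over cells and 4 at a 1.5-fold threshold, and in macrophage-gated cells 2 became 4 at that threshold. For KO_HFD against KO_CTR, 0 became 1 in fibroblast-gated cells with 5000 to 15000 UMIs and 3 at 1.5-fold, and 1 became 2 in macrophage-gated cells with 5000 to 15000 UMIs, 3 at 1.5-fold and 0 in cells under 2.5% mitochondrial, the last chosen after seeing the data. The median rho with total UMIs over types and libraries went from -0.25 to -0.42 for Malat1, from -0.15 to -0.040 for Gm42418 and from 0.28 to 0.081 for Gm10076 when cells were thinned to 2000 UMIs, which also left out 39 to 266 shallower cells a library. Leaving those out without thinning gave -0.42, -0.051 and 0.26, so that the move of Malat1 and most of that of Gm42418 came with the cells left out, and most of that of Gm10076 with the thinning. The other causes were not tested. No paired analysis was possible because each group is 1 library.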
